A study of Caenorhabditis elegans with 40 samples.

Results

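The HSF-1 binding sites described here are those that lost signal when HSF-1 was depleted from the soma of heat-shocked Caenorhabditis elegans. They are the 321 summits in the authors' soma and shared lists after heat shock, out of 441 summits common to the control animals of that condition (72.8%). The soma list held 64 summits, lost on depletion in the soma, and the shared list held 257, lost on depletion in the soma and, in another strain, in the germline. The other 120 summits served as the background, with 92 in the authors' germline list and 28 in no list. The 321 lost summits lay in 289 regions of the depletion comparison.

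Both groups were young adults of the strain JTL611, with 2 HSF-1 ChIP libraries in each. Endogenous hsf-1 in this strain carries the auxin-inducible degron and gfp (hsf-1::aid::gfp on chromosome I). The insertion ieSi57 on II expresses TIR1 fused to mRuby from the eft-3 promoter with the unc-54 3'UTR and carries Cbr-unc-119(+), and unc-119(ed3) lies on III. Depleted animals spent 2 h on auxin plates and then 30 min at 34 °C, and control animals spent the same time on ethanol plates before the same heat shock. The groups therefore shared every allele and differed in auxin. Chromatin was precipitated with an antibody to GFP, which sees the tagged protein that auxin removes. TIR1 is labelled as somatic, so the germline of depleted animals was meant to keep its HSF-1, which no value used here measures. The series held 40 libraries, 16 of them HSF-1 ChIP libraries in 8 groups, and lists from the same strain at 20 °C served for comparison. The labels do not say whether the paired libraries were separate cultures.

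HSF-1 is the transcription factor of the heat shock response. On heat stress it forms trimers that bind arrays of alternating short repeats, the heat shock elements, and switch on genes for chaperones such as the small heat shock proteins, HSP70 and HSP90. Chaperones keep proteins from aggregating and help them to fold. In C. elegans, HSF-1 is also needed for development and reproduction under normal growth.

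Each lost summit had a peak score, the authors' score of the summit in control animals, and a score of somatic loss, the authors' differential score of the region that holds it. The column of the score of loss is named for -log of the p-value and gives no base. The score is therefore used as a score that ranks regions, and not as a share of HSF-1 lost. No list gave values per library, so the depth and the spread between replicates are unknown. Summits are not replicates, and the tests below cover only the sampling of summits. Gene assignments rest on the WBcel235 annotation of Ensembl release 115, while no source used here names the build of the authors' coordinates.

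The lost summits spanned a wide range of binding. Their peak scores ran from 40.8 to 322070 with a median of 5897, against 60.5 to 15063 with a median of 409 for the other summits. The soma list and the shared list lay far apart in peak score, with medians of 283 and 7994. Their scores of somatic loss were nearly the same, with a median of 48.3 in the soma list, from 13.2 to 729, and of 48.8 in the shared list, from 13.4 to 1403. Soma summits thus had scores of loss like those of shared summits at far lower peak scores. The members with the lowest scores of loss were the summit upstream of ubc-9, a SUMO-conjugating enzyme, at 13.2, a summit nearest to fezf-1 at 13.4 and one upstream of sgt-1, a small co-chaperone with TPR repeats, at 13.4. The other summits carry no score of somatic loss in the lists.

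Across the 321 summits the score of somatic loss went with the peak score, with a Spearman correlation of 0.59 and a Pearson r of 0.64 on the log10 scale. Both scores rest on the same control libraries, and summits of 1 region share a score of loss, so this is a description without a test. Within the soma list alone the Spearman correlation was 0.80 (n = 64), and within the shared list alone it was 0.72 (n = 257). Each list formed its own band, with the soma list above the shared list at like peak scores. The bands are not independent of how the lists were made. The shared list was chosen for loss in the germline strain as well, and its germline score followed the peak score (Spearman correlation 0.86). In the lowest 25% of peak scores, up to 1641, the median score of loss was 43.1 for 53 soma summits and 21.4 for 28 shared summits. In the next, up to 5897, it was 185 for 7 soma summits and 28.0 for 73 shared summits. The highest held 3 soma summits, with a median of 729, and 77 shared summits, with a median of 181. Of those 3 soma summits, 2 lay in 1 region and share its score, so the median of 729 is the score of that region.

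**Figure D1:**
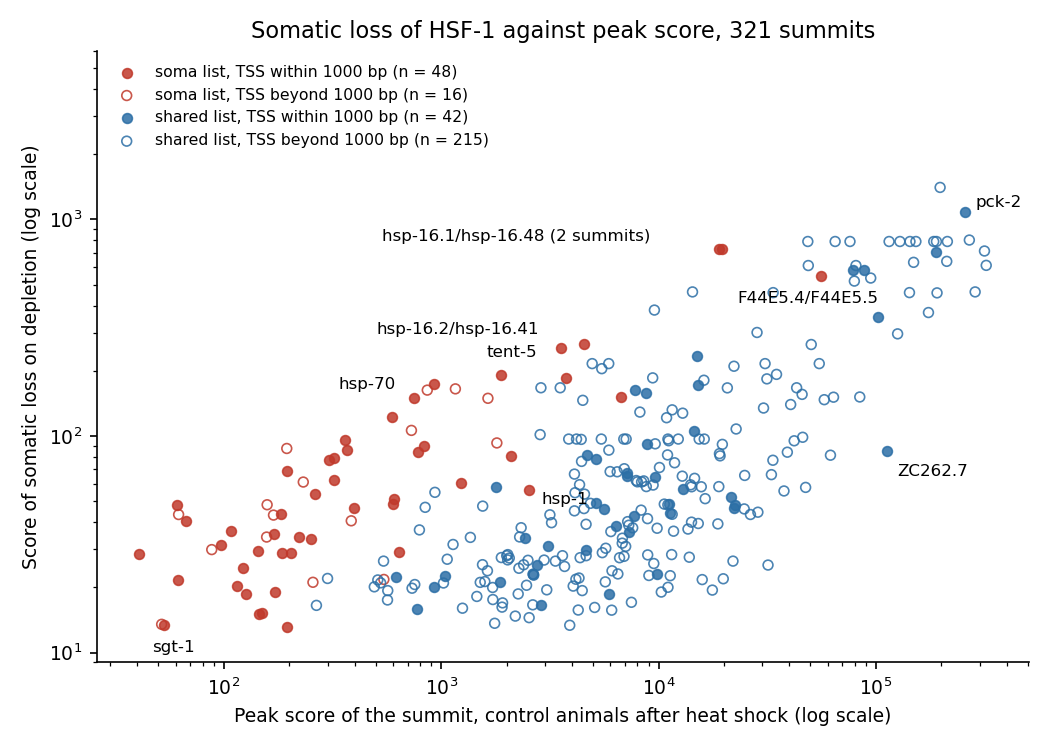
Score of somatic loss against peak score for the 321 lost summits, both on log axes. Points are summits, red for the soma list and blue for the shared list, filled where a protein-coding TSS lay within 1000 bp. The red points form a band to the upper left of the blue ones, and the shared ZC262.7 summit stands low for its peak score.

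The lists also differed in where they lay relative to genes. A transcription start site (TSS) of a protein-coding gene lay within 300 bp of 36 of 64 soma summits (56.3%, exact 95% binomial interval 43.3 to 68.6) and of 9 of 257 shared summits (3.50%, 1.61 to 6.54). Among the other summits it was 9 of 120 (7.50%, 3.49 to 13.8), an interval that overlaps that of the shared list. These 120 were mixed, with 2 of 92 in the germline list (2.17%, 0.264 to 7.63) and 7 of 28 in no list (25.0%, 10.7 to 44.9). A nearby TSS was therefore not particular to the soma list. Within 1000 bp the counts were 48 of 64 soma summits (75.0%) and 42 of 257 shared summits (16.3%). They were 23 of 92 in the germline list (25.0%) and 16 of 28 in no list (57.1%), and 14 of those 16 were upstream of the TSS. Of the 48 soma summits near a TSS, 44 were upstream of it, at a median signed distance of -165.5 bp, and none of the 48 lay more than 655 bp from it. Of the 42 shared summits near a TSS, 23 were upstream and 19 downstream. A further 56 shared summits (21.8%) were more than 5000 bp from any protein-coding TSS, against 3 soma summits. These intervals cover counting only.

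**Figure D2:**
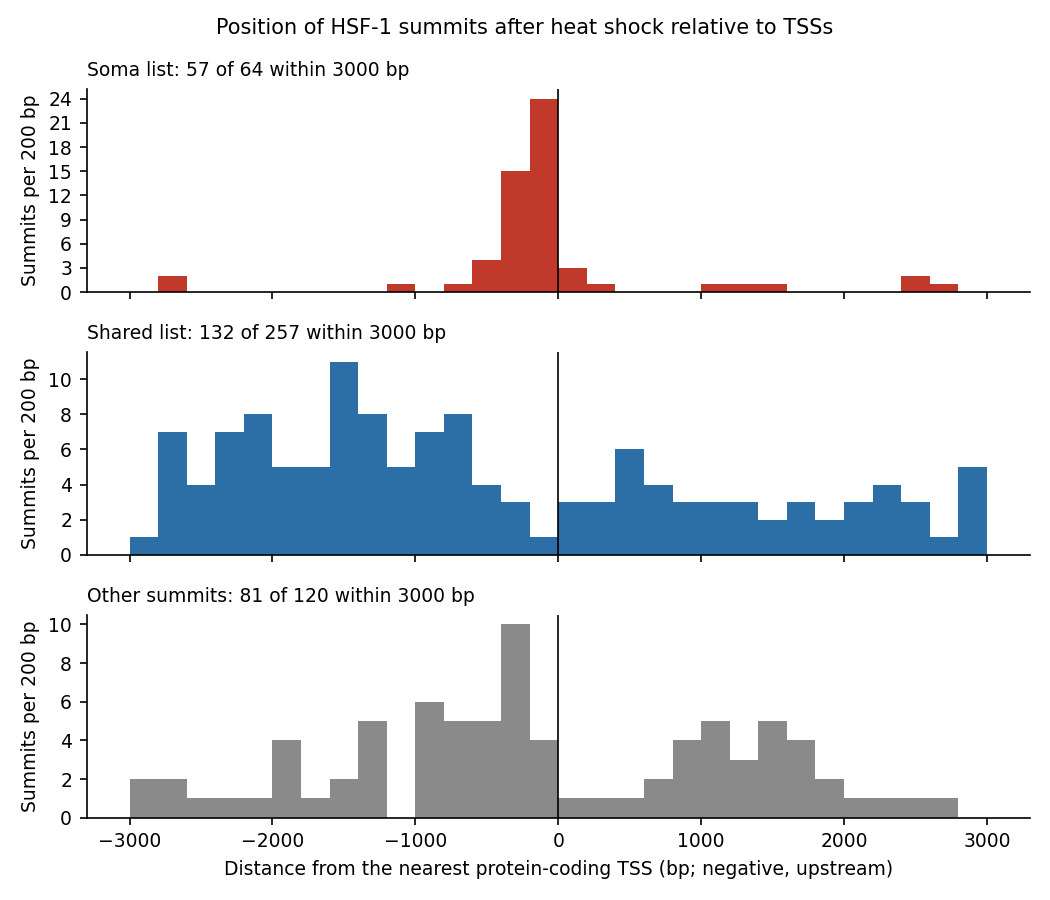
Signed distance of each summit from the nearest protein-coding TSS in 200 bp bins, for the soma list (top), the shared list (middle) and the other summits (bottom), within 3000 bp of a TSS. The vertical scale differs between panels. Soma summits pile up just upstream of the TSS, and shared summits spread over the whole window with few in the first 200 bp upstream.

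With both lists pooled, the difference between lost and other summits in TSS distance depended on the window. A TSS lay within 1000 bp of 90 of 321 lost summits (28.0%) and of 39 of 120 other summits (32.5%), which differ by -4.46 points. In a two-sided Fisher's exact test this gave p = 0.410, and 0.616 after Benjamini-Hochberg adjustment over 3 tests, so no difference was detected at this distance. With TSSs up to 2000 bp away the shares were 43.9% and 58.3%, which differ by -14.4 points (adjusted p = 0.0113 by Fisher's exact test), and at 500 bp the sign turned, to 5.46 points (adjusted p = 0.319). On the X chromosome lay 32 of 321 lost summits (9.97%) and 13 of 120 other summits (10.8%), which differ by -0.864 points (adjusted p = 0.860 by Fisher's exact test).

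By chromosome the lost summits numbered 38 on I, 45 on II, 34 on III, 87 on IV, 85 on V and 32 on X. For I to V in order the shares were 11.8%, 14.0%, 10.6%, 27.1% and 26.5%. The other summits had 6.67%, 15.8%, 18.3%, 16.7% and 31.7% there, and these differences were not tested. C. elegans autosomes have gene-dense centres and repeat-rich arms. The central 50% of a chromosome held 33 of 64 soma summits (51.6%, exact 95% interval 38.7 to 64.2) and 67 of 257 shared summits (26.1%, 20.8 to 31.9). For the other summits it was 35 of 120 (29.2%, 21.2 to 38.2). Within these it was 22 of 92 in the germline list (23.9%, 15.6 to 33.9) and 13 of 28 in no list (46.4%, 27.5 to 66.1). The share in no list was thus near that of the soma list. Of the lost summits, 218 were intergenic (67.9%) and 93 intronic (29.0%), and 10 lay in exons or UTRs of protein-coding genes. The other summits were alike, with 77 of 120 intergenic (64.2%), 41 intronic (34.2%), 1 in an exon and 1 in a 5' UTR. In the shared list 12 of 257 summits lay in a pseudogene (4.67%, 2.44 to 8.01), and in the soma list 0 of 64 did (0 to 5.60). Among the other summits 4 of 120 did (3.33%, 0.916 to 8.31). These intervals overlap, so no difference is read from the counts.

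Protein-coding genes with a TSS within 1000 bp of a lost summit numbered 114 of 19985 (0.570%), 71 near soma summits and 43 near shared ones. Genes of the 18 lists, which cover chaperones, protein turnover, stress genes and tissue markers, made up 30 of the 114, out of 251 list genes in the annotation. Of these, 27 were chaperone or co-chaperone genes, out of 101, and 20 of the 23 summits beside them were in the soma list. The chaperone summits had a median peak score of 602 and a median score of loss of 56.5, against 2746 and 47.8 for the 67 summits at other genes. Among soma summits alone the order of the peak scores turned, with medians of 312 at chaperone genes (n = 20) and 271 at other genes (n = 28), while the scores of loss were 55.2 and 47.1. In 21 of the 23 the rank of loss was above the rank of the peak score, and so it was in 40 of the 67. As 20 of the 23 were soma summits, the chaperone genes and the soma list cannot be told apart in the pooled values. Among soma summits alone the counts of ranks were 19 of 20 at chaperone genes and 25 of 28 at other genes.

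The highest score of loss in the soma list was at the hsp-16.1 and hsp-16.48 genes, which encode small heat shock proteins. These proteins hold unfolding clients in a soluble state and are nearly silent without stress. HSF-1 summits lay between the divergent genes of each pair, and 6 of the 17 genes in the list were reached from 3 summits. The summits at positions 9089944 and 9087954 of chromosome V, each between an hsp-16.1 and an hsp-16.48 gene, had peak scores of 19557 and 19033. Both lay in 1 region with a score of loss of 729. The summit between hsp-16.41 and hsp-16.2 at V 1805116 had a peak score of 4564 and a score of loss of 265. The hsp-16.1 and hsp-16.48 copies are near-identical, so reads may have been shared between their summits.

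Of 12 HSP70 family genes, 7 were near a lost summit, with a median score of loss of 150.2 over the 7 genes. HSP70 proteins bind and release unfolded stretches of protein with the energy of ATP. The heat-inducible pair F44E5.4 and F44E5.5 shared a summit at II 11759473 with a peak score of 55981, the highest of the soma list, and a score of loss of 549. Those genes are near-identical too. The inducible hsp-70 had a peak score of only 748 at I 9322554, 35 bp upstream of its TSS, yet a score of loss of 150.2, which put it at rank 68 of 321 by loss and rank 266 by peak score. The other HSP70 summits fell into both lists. The shared list held hsp-1, the constitutive cytosolic HSP70, with a peak score of 5629 and a score of loss of 46.2. It also held hsp-110, an exchange factor for HSP70, whose summit shared with the proteasome subunit gene rpn-3 had a peak score of 7791 and a score of loss of 163. The soma list held hsp-4, the BiP chaperone of the endoplasmic reticulum, with a score of loss of 62.9, and hsp-6 of mitochondria, with 29.3.

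HSP90 and its helpers were reached by soma summits. Of 13 such genes 6 were near a lost summit, with a median score of loss of 38.5 over the 6 genes. HSP90 matures kinases and receptors, and hsp-90 itself had a pair of soma summits at V 14684884 and V 14685798, with scores of loss of 35.2 and 56.5. Its partners had scores of loss of 48.4 at hip-1, an HSP70-binding adaptor, 43.5 at sti-1, which links HSP70 to HSP90, and 33.6 at fkb-6, an immunophilin. The HSP90 activator ahsa-1 had 18.6 and sgt-1 had 13.4. All of these summits had peak scores under the median of the lost summits, from 53.2 at sgt-1 to 2535 at the summit shared by hsp-90 and C47E8.4.

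Other folding factors were reached mostly by soma summits upstream of a TSS. Both BAG domain genes were reached, unc-23 with a score of loss of 77.6 and bag-1 with 53.8, and both products are exchange factors for HSP70. Of 29 J-domain genes, whose products hand clients to HSP70, the reached ones were dnj-13 in the shared list at 82.0 and dnj-12 in the soma list at 60.6. Mitochondrial chaperones and proteases gave 3 of 9 genes, with hsp-60 and its HSP10 partner Y22D7AL.10 sharing a summit at 80.8. The cytosolic chaperonin and prefoldin list gave 2 of 14 genes, cct-5 at 36.2 and cct-8 at 19.0, and the list of folding factors of the endoplasmic reticulum gave hsp-4 alone of 14. Among 36 ubiquitin and proteasome genes rpn-3 and uba-1, the ubiquitin-activating enzyme with a score of loss of 51.3, were reached. Among 12 translation genes only icd-1, a subunit of the nascent polypeptide-associated complex, was, at 15.2. No lost summit was near any of the 4 genes that regulate HSF-1, 11 autophagy genes, 14 oxidative stress and detoxification genes or 22 germ granule and small RNA genes. The 17 germline, 12 muscle, 12 intestine and 10 hypodermis marker genes were not reached either. In lists this small, a share of 0.570% over all genes gives few or no reached genes, so nothing is read from these zeros. Among the other summits after heat shock, 1 lay 396 bp upstream of hsb-1, a negative regulator of HSF-1, with a peak score of 97.8, and 1 lay 228 bp upstream of csr-1, a germline Argonaute gene, with 129. Both were in no list after heat shock and had a counterpart in the shared list of 20 °C.

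**Figure D3:**
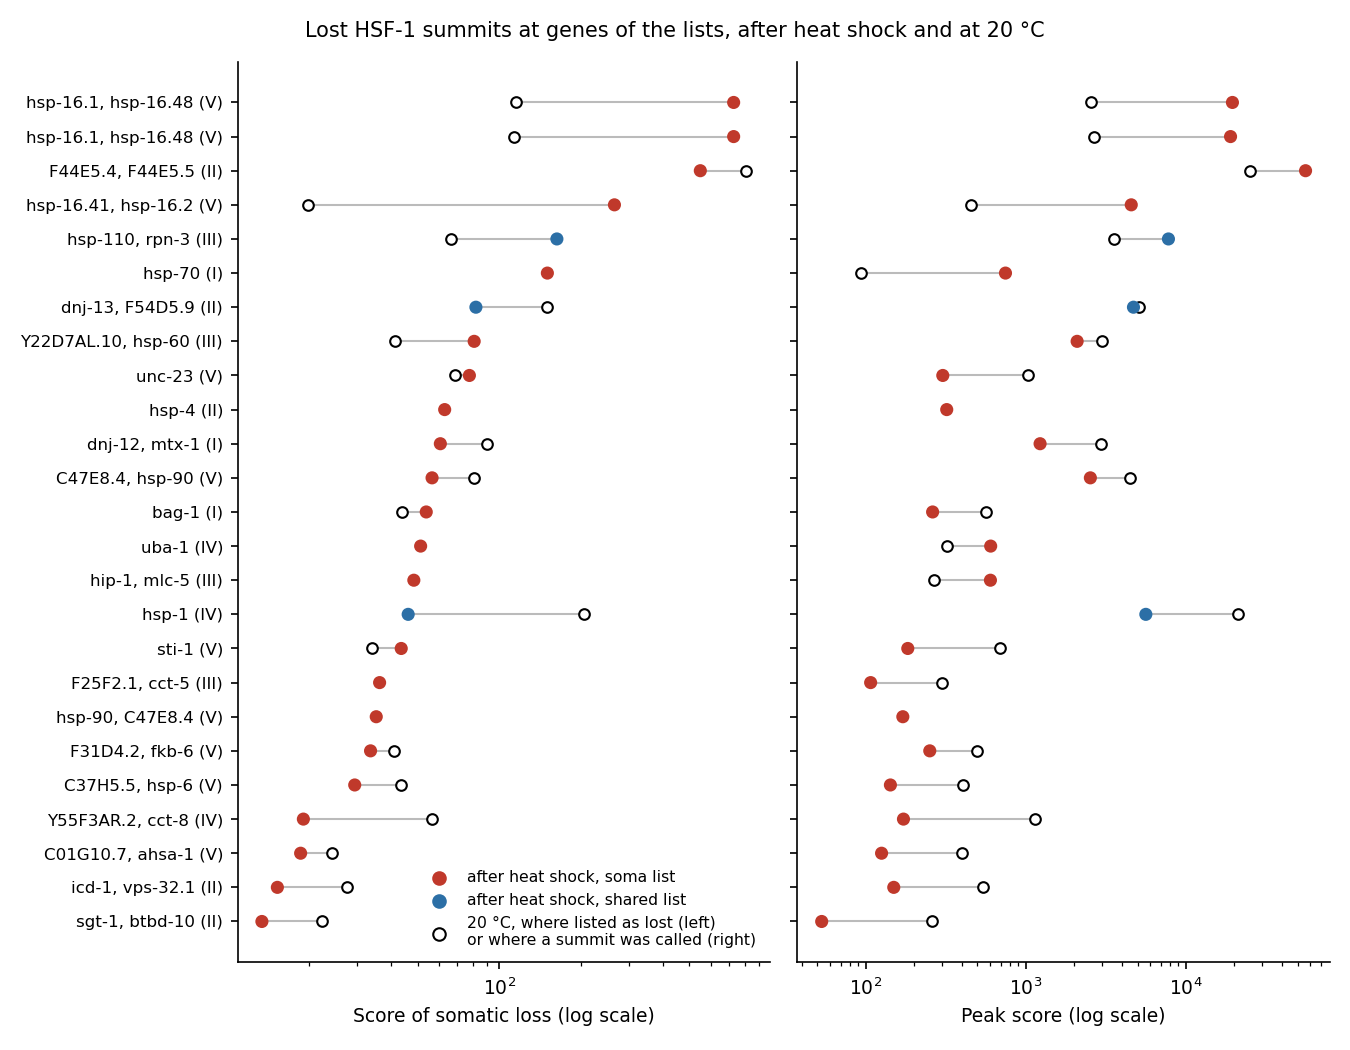
Score of somatic loss (left) and peak score (right) for the 25 lost summits at genes of the lists, on log axes and sorted by loss after heat shock. Filled circles are heat-shocked animals, red for the soma list and blue for the shared list, and open circles are animals at 20 °C. The small heat shock summits lie far to the right of their 20 °C values, and the hsp-1 summit lies to the left of its own.

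Outside the lists, the summits near a TSS whose rank of loss was farthest above their rank of peak score were in the soma list. The summit at scp-1, the gene for the SREBP-escorting protein of sterol sensing, had a peak score of 929 and a score of loss of 174, at rank 257 by peak score and rank 54 by loss. The summit at ubql-1, a ubiquilin that carries ubiquitinated proteins, had 593 and 122, at ranks 273 and 77. The summit shared by K11H12.8 and the ribosomal protein gene rpl-15 had 362 and 95.6, and the one at W03F9.1 had 1875 and 191. By score of loss itself, the highest such summit of the soma list was at tent-5, a non-canonical poly(A) polymerase gene. It lay 101 bp inside the gene, in the 5' UTR, with a peak score of 3574 and a score of loss of 254.

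The reverse held at some shared summits. Near TSSs, the largest drops in rank were at eri-12, with a peak score of 9855 and a score of loss of 23.0, at T04B8.1 with 5897 and 18.7, and at nhr-163, a nuclear receptor gene, with 22144 and 46.2. The next were W01A11.1 with 22453 and 47.7, and F55C9.5 with 2884 and 16.54. Their ranks of peak score were 61 to 207 and their ranks of loss 167 to 305. All 5 were in the shared list.

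The highest peak scores were in the shared list, mostly away from TSSs. By score of loss, the soma region at hsp-16.1 and hsp-16.48, with 729, stood above several of the shared summits named below. The highest score of loss, 1403, belonged to a summit at X 2003067 with a peak score of 197569, 5033 bp upstream of the nearest gene, Y40A1A.3. The next was the summit in the 5' UTR of pck-2, a phosphoenolpyruvate carboxykinase gene, 156 bp downstream of its TSS, with a peak score of 257729 and a score of loss of 1085. It was followed by X 143419 near Y73B3A.8, with 269316 and 802. The highest peak score, 322070, lay in an intron of tir-1, which encodes the SARM1-like adaptor of innate immunity, with a score of loss of 613. The summit at V 15321119, 1863 bp upstream of the nuclear receptor gene nhr-247, had 316157 and 714. Near TSSs, high values were also found at col-52, a collagen gene, with 188191 and 709, at ZK1053.2, where both summits of a region had a score of loss of 581, and at C53C11.4 with 102203 and 353.

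For the shared list a score of germline loss from the other TIR1 strain was also given. The scores of the 2 strains are not on 1 scale, so their ratio only ranks the summits. Over the 257 summits the germline score was a median of 3.29 times the somatic score. At the shared chaperone summits the ratio was lower than that median and under 1. So it was at 24 of the 257 shared summits in all, these included, and a low ratio was not particular to chaperone genes. The scores of loss were 163 for the soma and 44.7 for the germline at hsp-110, 82.0 and 27.5 at dnj-13, and 46.2 and 31.9 at hsp-1. The lowest ratio, 0.093, was at a summit in an intron of vab-10, a spectraplakin gene of muscle and epidermal attachment, with 381 for the soma and 35.5 for the germline. The highest, 47.2, was at ZC262.7, with 85.0 for the soma and 4011 for the germline. The germline score followed the peak score with a Spearman correlation of 0.86 over these 257 summits, which share the scores of regions and the peak scores of control animals.

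Depletion regions differed in width, and the 2 widest ones over single summits lay at chaperone genes. The median width over 275 regions with 1 summit was 494 bp, 448 bp in the soma list and 522 bp in the shared list, and 12 of them reached 1200 bp. Width went with the score of loss over the 289 regions, with a Spearman correlation of 0.70, and both come from the same comparison. The widest region with 1 summit, II 11756352 to 11762488, measured 6137 bp and covered F44E5.4 and F44E5.5 from end to end. The second, V 1804042 to 1806447, measured 2406 bp and covered hsp-16.2 and hsp-16.41. The region with both summits at hsp-16.1 and hsp-16.48, V 9086533 to 9091447, measured 4915 bp and covered all 4 genes. Only 1 other region held a whole protein-coding gene, a shared region of 549 bp over C53C11.4, a gene of 306 bp. The hsp-16 genes are short, at 487 to 698 bp, while F44E5.4 and F44E5.5 measure 2205 and 2200 bp. At pck-2, with a higher score of loss, the region measured 1496 bp and covered 25.1% of the gene, and at tent-5 it measured 1711 bp and covered 14.7%.

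**Figure D4:**
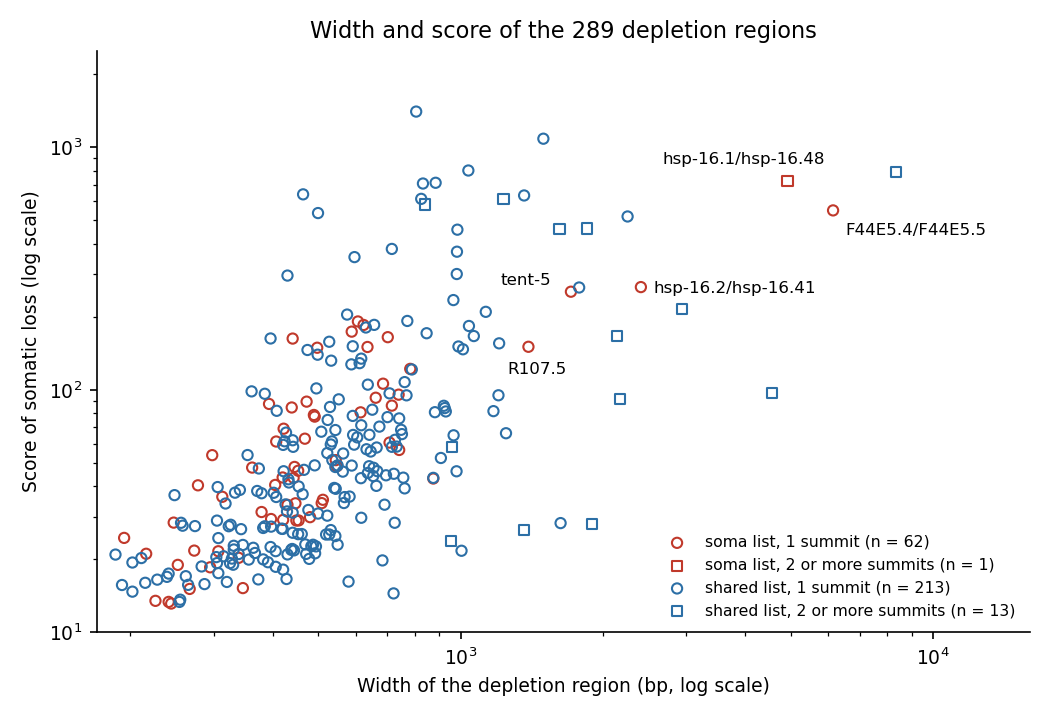
Score of somatic loss against the width of the depletion region, both on log axes, for 289 regions. Circles are regions with 1 summit and squares regions with 2 or more, red for the soma list and blue for the shared list. The F44E5.4/F44E5.5, hsp-16.1/hsp-16.48 and hsp-16.2/hsp-16.41 regions stand to the right of most regions with a like score, and R107.5 is labelled as another wide soma region.

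Of the 289 regions, 14 held 2 or more summits, 46 summits in all, and 13 of these regions were in the shared list. Of the 46 summits, 6 lay within 1000 bp of a TSS, among them both soma summits at hsp-16.1 and hsp-16.48. That count stands beside 42 of 257 in the whole shared list (16.3%) and 90 of 321 over all lost summits (28.0%). The largest, V 7916819 to 7925169, measured 8351 bp and held 10 summits with peak scores of 48645 to 213386 under 1 score of loss of 790. The nearest gene was srsx-7, a chemoreceptor gene, at least 1708 bp away. A region of 4549 bp at IV 14476550 to 14481098 held 8 summits with peak scores of 3861 to 16235 and a score of loss of 96.7. One of 2934 bp at III 424615 to 427548, nearest to cec-8, held 4 summits with a score of loss of 216. Counting the 289 regions in place of the 321 summits gave a Spearman correlation of 0.54 between loss and peak score.

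Most lost summits were also bound without heat shock. A common summit at 20 °C lay within 100 bp of 285 of 321 lost summits (88.8%) and of 65 of 120 other summits (54.2%), which differ by 34.6 points (p = 3.45e-14 by a two-sided Fisher's exact test and 1.04e-13 after adjustment over 3 tests). Strong summits had a counterpart more often, and lost summits were stronger. At or above the median peak score of all 441 summits, 2884, the shares were 97.1% of 207 lost summits and 92.9% of 14 other summits (adjusted p = 0.616 by Fisher's exact test). Below it they were 73.7% of 114 and 49.1% of 106, which differ by 24.6 points (adjusted p = 0.000555 by Fisher's exact test), in a comparison chosen after the values were seen. Peak scores of lost and other summits were not matched above or below this cut, so peak score and loss cannot be told apart here.

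Of the 64 soma summits, 48 had a counterpart at 20 °C, and 40 of those were lost on somatic depletion at 20 °C as well, 11 in the soma list of that condition and 29 in its shared list. Another 6 were in the germline list of 20 °C and 2 in none. Among the 16 with no summit at 20 °C were those at hsp-4, scp-1 and ubql-1, and one of the pair at hsp-90. The one at rpl-15 had a 20 °C summit 196 bp away, outside the 100 bp used here and inside the alternative of 300 bp. The hsp-70 summit had a counterpart with a peak score of 93.3 that stood in no list. Of the 257 shared summits, 237 had a counterpart, 170 of them in the shared list of 20 °C and 67 in its germline list. Those 67 were thus listed as lost in the soma after heat shock but not at 20 °C, and their median peak score after heat shock was 2877, against 13759 for the 170.

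Scores of loss could be set side by side for the 210 summits lost in the soma in both conditions, although the conditions were scored separately. The median score of somatic loss was 65.4 after heat shock and 35.1 at 20 °C, and 161 summits had the higher score after heat shock. The shared list carried this count, with 139 of 170 higher after heat shock and medians of 67.8 after heat shock and 35.1 at 20 °C. In the soma list only 22 of 40 were higher after heat shock, with medians of 58.6 after heat shock and 36.4 at 20 °C. Summits in the same region share a score of loss, so some regions were counted more than once. Peak scores split the lists more sharply. In the shared list 168 of 170 had the higher peak score after heat shock, and in the soma list 13 of 40 did, with a median of 283 after heat shock and 538 at 20 °C.

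At chaperone genes the scores differed in either direction between the conditions. At V 9089944, between hsp-16.1 and hsp-16.48, the peak score was 19557 after heat shock and 2541 at 20 °C, and the score of loss was 729 after heat shock and 115 at 20 °C. At hsp-16.41 and hsp-16.2 the score of loss was 265 after heat shock and 19.8 at 20 °C. The F44E5.4 and F44E5.5 summit had the higher peak score after heat shock, 55981 against 25068 at 20 °C, but a lower score of loss, 549 after heat shock and 807 at 20 °C. At hsp-1 both scores were lower after heat shock, with a peak score of 5629 after heat shock and 21244 at 20 °C, and a score of loss of 46.2 after heat shock and 205 at 20 °C. The sti-1 summit had a peak score of 183 after heat shock and 693 at 20 °C, and the cct-8 summit 172 after heat shock and 1144 at 20 °C. The dnj-13 summit had a score of loss of 82.0 after heat shock and 149.7 at 20 °C. Outside the chaperones, pck-2 had a score of loss of 1085 after heat shock and 1589 at 20 °C, and tent-5 had 254 after heat shock and 58.2 at 20 °C. What the peak scores are relative to is not stated, so a lower score after heat shock is not shown to be less HSF-1.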

How the data were processed

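Degron-tagged HSF-1 with GFP was precipitated with an antibody to GFP, per the labels. The lists and summit files hold scores deposited by the authors: a peak score per summit and a differential score per depletion region, per the file headers. Per the submitters' processing notes, Bowtie2 and MACS2 were used, with no version named. No source used here gives the genome build or the scaling of the scores. The labels name combined pileup tracks, but no source says whether the lists rest on pooled replicates.

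Lost summits were all distinct rows of the soma and shared lists after heat shock, each found among the 441 common summits of the control animals and inside its own region. Summits were assigned to every protein-coding TSS within 1000 bp (Ensembl release 115, WBcel235). As a check of the build, 36 soma summits lay within 300 bp of a TSS as deposited, and 27 and 19 did after a shift of 500 bp to lower and to higher positions. By chromosome this was resolved on I, with 6, 2 and 2, and on V, with 16, 9 and 7. On II (5, 7 and 3), III (4, 4 and 3), IV (5, 5 and 4) and X (0, 0 and 0) it was not, so gene assignments there, among them those of F44E5.4, hsp-110 and hsp-1, rest on a less certain fit. Of 255 list symbols 249 were in the annotation, and 19959 of its 19985 protein-coding genes matched the gene name table by name.

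Summits at both temperatures were matched within 100 bp. Shares were compared with Fisher's exact test, two-sided, adjusted by the Benjamini-Hochberg method over 3 tests at 0.05, with exact 95% binomial intervals, and the code was tested on simulated data. Named genes were those near a TSS among the 10 highest scores of loss, the 10 highest peak scores, the 5 largest rank differences in each direction and all reached list genes, plus, anywhere, the 5 highest by each score and the 3 lowest by loss. The lists covered HSP70, small heat shock proteins, HSP90 with co-chaperones, chaperonin and prefoldin, J-domain, BAG, mitochondrial, endoplasmic reticulum, HSF-1 regulator, ubiquitin and proteasome, autophagy, oxidative stress, translation, germ granule, germline, muscle, intestine and hypodermis genes. The members and lists were chosen with earlier results of these data known. The genes vab-10, cec-8, hsb-1, csr-1 and R107.5 were named after their values were seen. Alternatives changed distances, the unit counted, the TSS set, the peak score range and the lists. The search for heat shock elements was not run, because no sequence was used here. Python 3.11.15, scipy 1.17.1, pandas 2.3.3, statsmodels 0.14.6 and matplotlib 3.10.9 were used.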

Additional observations from a re-analysis of the deposited data

How the results depend on the processing

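Of 23 alternatives over 7 results, 12 left the result unchanged, in direction and call where it was tested and in value where it was not. The TSS share of lost minus other summits turned from -4.46 percentage points to 5.46 at 500 bp (Fisher's exact test, adjusted p = 0.319). It was also positive at or above the median peak score, at 5.04 (adjusted p = 1 by Fisher's exact test), and below it, at 8.95 (adjusted p = 0.321, chosen after seeing the data). At 2000 bp it passed the test, at -14.4 points (Fisher's exact test, adjusted p = 0.0113). The X share turned from -0.864 points to 0.160 with summits counted as sites (Fisher's exact test, adjusted p = 1) and to 11.1 at or above the median peak score (adjusted p = 0.410). The 20 °C counterpart share kept 32.2 to 35.6 points across 50 bp, 300 bp and sites (Fisher's exact test, adjusted p from 9.66e-15 to 4.72e-11), and 4.24 points at or above the median peak score, where 14 other summits remained (adjusted p = 0.616). Of the lost summits, 161 had a score of loss at or above the median, a number that the use of a median fixes. The Spearman correlation between loss and peak score was 0.80 in the soma list and 0.72 in the shared list, against 0.59 over both. With the nearest TSS only, 19 list genes were reached in place of 30, since a summit between neighbouring genes then counts for 1 of them. Distances of 50 and 300 bp, chosen after seeing the data, gave 201 and 213 summits lost at both temperatures in place of 210. The causes of the other changes were not tested. No paired analysis was possible because the lists give summits and regions without values of single libraries, and leaving out a replicate was not possible for the same reason. The planned heat shock element alternatives were not run. Depth, replicate spread and the share of HSF-1 lost are unknown. The score of loss went with peak score and region width, which limits comparisons between weak and strong sites.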

Other observations

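Values of 5 further soma summits near a TSS, outside the lists and the naming rule, are given here. They were picked after their values were seen and stand for no group. The summit between aip-1, whose product tunes the proteasome under arsenite stress, and ddx-17 had a peak score of 370.1 and a score of loss of 86.1. Those values were 104 and 20.1 at 20 °C. The summit at cyn-7, a cyclophilin gene, and bath-36 had a peak score of 785 and a score of loss of 84.6, and the one at mbf-1, a transcriptional coactivator gene, and nse-4 had 834 and 89.4. At act-2, an actin gene, they were 144 and 15.1, and at lin-35, the retinoblastoma gene, with vps-51 they were 203 and 28.9.

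Of the 16 soma summits with no TSS within 1000 bp, 2 on X, at 16929849 and 16931021, had scores of loss of 165 and 106. Their nearest protein-coding TSS, that of C30E1.4, was 5913 and 7085 bp away. Others were at II 12102594, 2605 bp upstream of Y17G7B.17, with a score of loss of 163, and in an intron of jun-1, a subunit gene of the AP-1 factor, with 87.5. These distant soma summits had a median score of loss of 45.7 and a median peak score of 244, against 49.9 and 312 for the 48 soma summits near a TSS.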
